A study of Mus musculus with 32 samples.

Results

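Branched-chain amino acid breakdown was followed through the transcripts of 10 genes, *Bcat2*, *Bckdha*, *Bckdhb*, *Dbt*, *Ivd*, *Mccc1*, *Mccc2*, *Auh*, *Acadsb* and *Hibch*, in liver and 3 fat depots of *Gpr146* knockout (KO) and wild-type (WT) mice. The depots were brown fat (BAT) and the white fat of the inguinal (iWAT) and epididymal (eWAT) sites. The genes were taken by symbol, and all 10 were found among the 24646 genes of every tissue, each read by 1 probe set. *Gpr146* encodes an orphan G protein-coupled receptor. The KO mice lacked it in the whole body through CRISPR/Cas9 editing, so that no tissue of these animals keeps the receptor. Both groups were male littermates with a C57BL/6J background, which had reached an age of 20 weeks after 3 months of high-fat diet (HFD) and were fasted overnight. Each genotype had 4 mice and each mouse gave 1 Affymetrix Mouse Gene 2.1 ST array per tissue, 32 arrays in all. Values are log2 expression, so that a difference of 1 is a 2-fold change, and the number of arrays limits their precision.

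Leucine, isoleucine and valine are essential amino acids with a branched side chain. The mitochondrial aminotransferase encoded by *Bcat2* moves their amino group to 2-oxoglutarate, and the branched-chain ketoacid dehydrogenase complex then removes a carbon dioxide in the committed step of the pathway. *Bckdha* and *Bckdhb* encode the subunits of the decarboxylase of that complex and *Dbt* its acyltransferase core. Beyond it the branches separate. *Ivd*, *Mccc1*, *Mccc2* and *Auh* act on leucine carbon, *Hibch* on valine carbon, and *Acadsb*, the short/branched-chain acyl-CoA dehydrogenase, mainly on isoleucine carbon. Fat cells use the pathway as a source of carbon for lipid and fuel, brown fat oxidises these amino acids for heat, and the liver has little of the aminotransferase but much of the dehydrogenase. In obesity the enzymes of white fat are known to be low. The study measured valine, leucine and isoleucine in liver, which raises the question of where in these animals the transcripts of their breakdown differed.

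The promoters of *Bckdha*, *Bcat2* and *Bckdhb* are shown because these members had the smallest limma p-values in eWAT. Each runs 5′ to 3′ on the strand of the gene, from 250 bases before to 50 bases after a transcript start of the RefSeq annotation (build GRCm38.p6), and capitals mark matches to the motifs given after them. *Bckdha* lies on the minus strand at chr7:25658712-25659011, *Bcat2* on the plus strand at chr7:45569903-45570202 and *Bckdhb* on the plus strand at chr9:83924887-83925186. *Bcat2* and *Bckdhb* each have 2 starts in the table, of which the more upstream is shown. The window of *Bcat2* lies inside the gene, which begins at chr7:45568967. No window was available for that first start.
Bckdha: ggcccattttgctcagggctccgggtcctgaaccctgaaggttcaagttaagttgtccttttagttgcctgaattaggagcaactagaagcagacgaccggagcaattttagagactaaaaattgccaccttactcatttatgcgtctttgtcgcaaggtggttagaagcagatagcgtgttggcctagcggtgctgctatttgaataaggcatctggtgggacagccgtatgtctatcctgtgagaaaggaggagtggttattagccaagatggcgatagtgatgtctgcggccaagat
Bcat2: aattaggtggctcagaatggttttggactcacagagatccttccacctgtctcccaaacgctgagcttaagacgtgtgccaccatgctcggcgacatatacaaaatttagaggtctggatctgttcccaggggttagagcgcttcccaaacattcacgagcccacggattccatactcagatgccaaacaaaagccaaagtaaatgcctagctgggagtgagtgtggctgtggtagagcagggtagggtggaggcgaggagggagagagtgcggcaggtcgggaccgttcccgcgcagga
Bckdhb: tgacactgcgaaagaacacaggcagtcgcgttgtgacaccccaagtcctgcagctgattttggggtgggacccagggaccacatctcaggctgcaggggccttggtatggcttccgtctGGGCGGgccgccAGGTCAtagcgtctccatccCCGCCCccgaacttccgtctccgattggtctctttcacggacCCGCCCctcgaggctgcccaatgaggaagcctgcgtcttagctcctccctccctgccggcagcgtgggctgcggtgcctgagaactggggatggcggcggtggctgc

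A search on both strands used AGGTCA, the half-site of many nuclear receptors, TNAAGGTCA, its extended form bound by estrogen-related receptors, which contains the first, GCATGCGC, the core of the NRF1 motif, and GGGCGG, the GC box. The promoter of *Bckdhb* held 1 AGGTCA and 3 GC boxes, and those of *Bckdha* and *Bcat2* held none of the 4 motifs, so they carry no capitals. Of the 9 members with a promoter in the table, 5 had a GC box, 1 had AGGTCA and 0 had either of the others. Among all 32851 promoters of this length, 35.66% held a GC box, 16.26% AGGTCA, 2.71% GCATGCGC and 1.28% TNAAGGTCA. The 3 members with the smallest p thus share none of these letters in the windows shown, and that of *Bcat2* is not at the first start of its gene.

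The labelled tissues carried their defining transcripts. The mean log2 value of 6 hepatocyte genes was 10.8 to 10.88 in liver and at most 4.57 in any fat array, that of 6 brown adipocyte genes 8.73 to 9.38 in BAT and at most 4.51 in white fat, and that of 8 adipocyte genes 8.95 to 10.08 in fat and at most 4.33 in liver. *Gpr146* was lower in every KO array than in every WT array of each tissue, by -1.77 in liver (adjusted p = 6.55e-06 from limma), -1.53 in eWAT (adjusted p = 0.00823), -1.55 in iWAT (adjusted p = 0.221) and -1.16 in BAT (adjusted p = 0.0727) on the log2 scale. In iWAT, 4 arrays carried B cell transcripts, with a mean log2 value of 5 B cell genes of 8.05 and 7.98 in WT mice 1 and 2, 7.61 in KO mouse 2 and 5.85 in KO mouse 4, against 3.15 to 3.42 in the other arrays. In BAT, 3 arrays carried skeletal muscle transcripts, with a mean over 7 muscle genes of 6.77 and 7.85 in WT mice 2 and 3 and 7.9 in KO mouse 2, against 2.94 to 3.89 in the others. The differences of all 10 genes in iWAT and BAT are therefore also given without these arrays. In eWAT, KO mouse 3 had a mean log2 value of 4.32 over the 5 B cell genes, against 2.57 to 3 in the other arrays. The titles of the liver KO samples name both genotypes, and their other labels say KO.

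In eWAT, 9 of the 10 genes rose in KO mice at an adjusted p below 0.05 (limma, Benjamini-Hochberg over all genes), by 0.65 for *Dbt* to 1.19 for *Bckdha* on the log2 scale, and 0 fell. *Auh* was the exception, at 0.30 (adjusted p = 0.109). The methods' t-test called all 10 before adjustment and 0 after it, when it called 38 of all genes in place of the 3758 of limma. Among all 24646 genes of eWAT, 4.57% rose by the same rule, 1126 genes against 2632 that fell, and after quantile normalization 1830 rose and 1910 fell. All 4 KO values lay above all 4 WT values for those 9 genes, as they did for 8.63% of all genes. The members' median difference was 1.07, against 0.031 for all genes. Bulk tissue was measured, and a larger share of one cell type cannot be told apart from more RNA per cell.

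**Figure D1:**
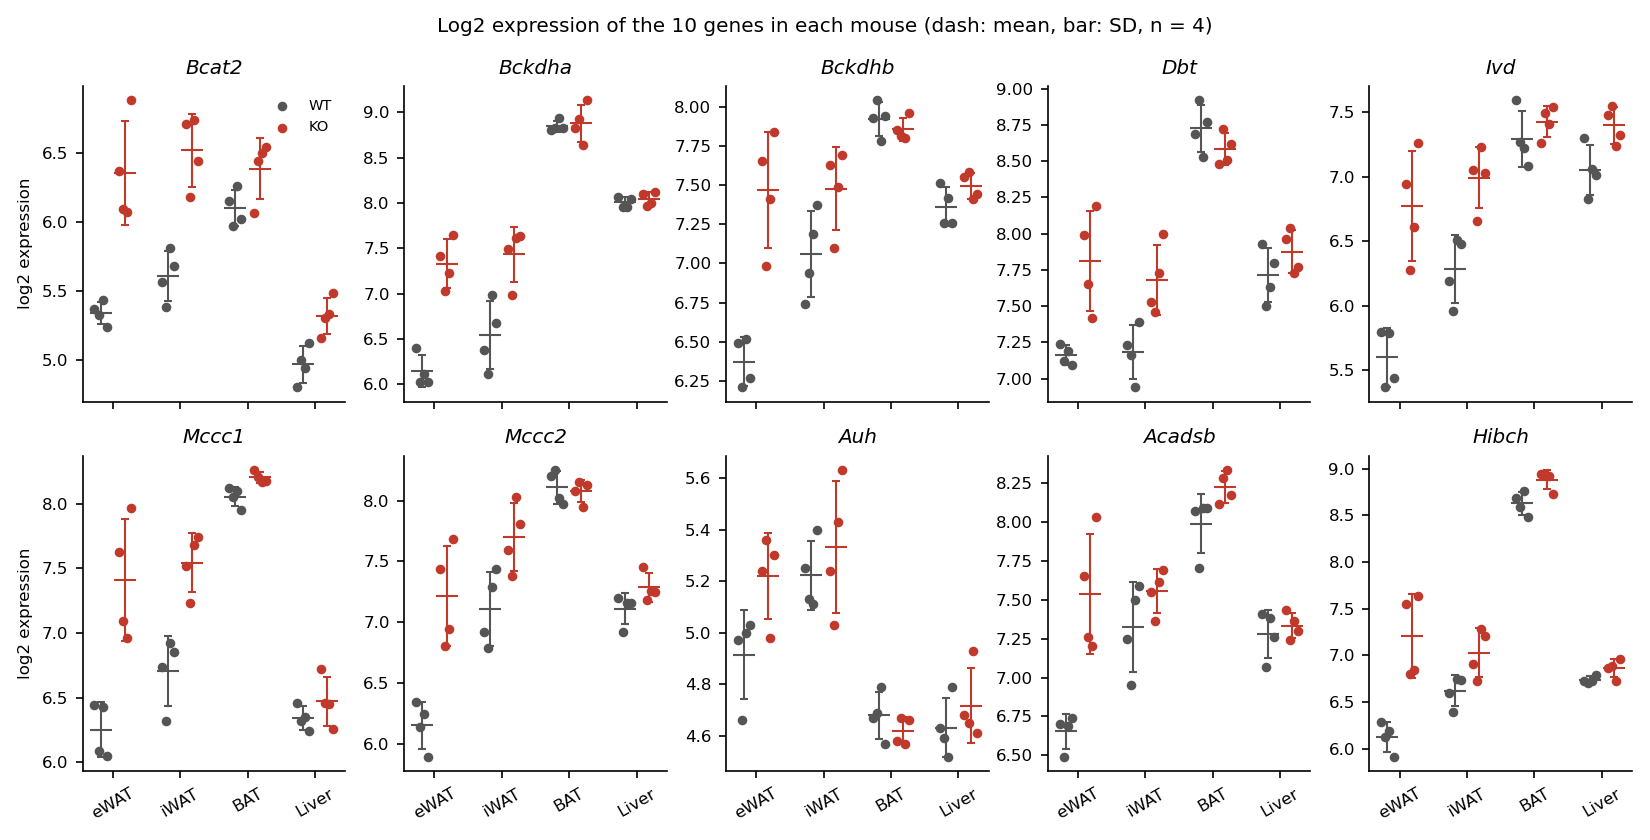
Log2 expression (vertical axes, each gene on its own scale) of the 10 genes in eWAT, iWAT, BAT and liver, with a point per mouse, WT in grey and KO in red, and the mean with its SD (n = 4 mice). In eWAT the red points clear the grey ones for every gene but *Auh*, as for *Bckdha* with KO values of 7.03 to 7.65 against 6.03 to 6.40 in WT, and in BAT and liver most of the genes overlap between genotypes.

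*Bcat2*, which opens the pathway, measured 5.37, 5.32, 5.43 and 5.24 in eWAT of WT mice 1 to 4 and 6.37, 6.09, 6.07 and 6.88 in that of KO mice 1 to 4. Every KO mouse stood above every WT mouse, and the mean rose from 5.34 ± 0.08 to 6.35 ± 0.37 (SD, n = 4), a 2.02-fold change (log2 1.01, 95% confidence interval 0.64 to 1.38, adjusted p = 0.00956). In iWAT the WT values were 5.56, 5.38, 5.81 and 5.68 and the KO values 6.71, 6.18, 6.74 and 6.44. These did not overlap either, with a difference of 0.91 (interval 0.57 to 1.24), but the adjusted p was 0.221. In liver the KO values of 5.16 to 5.48 also lay above the WT values of 4.80 to 5.12, with a difference of 0.35 (interval 0.15 to 0.56, adjusted p = 0.126). In BAT the groups overlapped, at 5.97 to 6.26 in WT and 6.06 to 6.54 in KO mice.

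*Bckdha*, the alpha subunit of the decarboxylase, had the largest change of the 10 in eWAT. Its values were 6.40, 6.03, 6.12 and 6.03 in WT and 7.42, 7.03, 7.23 and 7.65 in KO mice, a 2.28-fold rise (log2 1.19, interval 0.87 to 1.51, adjusted p = 0.006). In iWAT the WT mice measured 6.38, 6.12, 6.99 and 6.68 and the KO mice 7.49, 6.99, 7.61 and 7.64, a difference of 0.89 (interval 0.42 to 1.36, adjusted p = 0.221). The lowest KO mouse met the highest WT mouse there, both at 6.99 after rounding, and the other 3 KO mice measured 7.49 or more. BAT and liver showed differences of 0.04 each, with intervals of -0.19 to 0.28 and -0.12 to 0.20, which leave out changes of the size seen in eWAT.

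*Bckdhb*, the beta subunit, measured 6.49, 6.21, 6.52 and 6.27 in eWAT of WT mice and 7.65, 6.98, 7.41 and 7.84 in KO mice. It rose 2.15-fold (log2 1.10, interval 0.72 to 1.49, adjusted p = 0.00894). Its difference in iWAT was 0.42 (interval 0.03 to 0.81, adjusted p = 0.303), with overlapping groups of 6.74 to 7.37 and 7.10 to 7.69, and in BAT it was -0.07 (interval -0.26 to 0.12). *Dbt*, the core of the complex, made the smallest of the 9 steps in eWAT, from 7.24, 7.12, 7.19 and 7.09 to 7.99, 7.65, 7.42 and 8.19 (log2 0.65, interval 0.31 to 1.00, adjusted p = 0.022). Its call was lost, with an adjusted p of 0.0536 to 0.0662, when WT mouse 2, 3 or 4 or KO mouse 1 was left out. In iWAT *Dbt* stood 0.50 higher without overlap (interval 0.17 to 0.83, adjusted p = 0.233), and in BAT its estimate was -0.14 (interval -0.37 to 0.08). *Dld*, the dehydrogenase subunit that this complex shares with those for pyruvate and 2-oxoglutarate, had 0.31 in eWAT (adjusted p = 0.111).

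On the leucine branch, *Ivd*, isovaleryl-CoA dehydrogenase, took the next step with eWAT values of 5.80, 5.37, 5.79 and 5.44 in WT and 6.94, 6.28, 6.61 and 7.26 in KO mice, a 2.25-fold rise (log2 1.17, interval 0.72 to 1.62, adjusted p = 0.0102). *Mccc1* and *Mccc2*, the alpha and beta subunits of the biotin enzyme methylcrotonyl-CoA carboxylase, rose together. *Mccc1* went from 6.44, 6.09, 6.43 and 6.05 to 7.63, 7.09, 6.96 and 7.97 (2.23-fold, adjusted p = 0.0116). *Mccc2* went from 6.34, 6.14, 6.24 and 5.89 to 7.44, 6.80, 6.94 and 7.68 (2.1-fold, adjusted p = 0.0109). The following hydratase, *Auh*, which also binds AU-rich RNA, measured 4.97, 4.66, 5.0 and 5.03 in WT and 5.24, 5.36, 4.98 and 5.30 in KO mice. KO mouse 3 fell inside the WT range for *Auh* and the interval was 0.05 to 0.56. With quantile normalization *Auh* was called as well, at 0.46 (adjusted p = 0.0193).

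In iWAT, *Ivd* and *Mccc1* did not overlap between genotypes. *Ivd* measured 5.96 to 6.51 in WT and 6.66 to 7.23 in KO mice, a difference of 0.71 (interval 0.34 to 1.07). *Mccc1* measured 6.32 to 6.92 in WT and 7.23 to 7.74 in KO mice, a difference of 0.83 (interval 0.47 to 1.20), and the adjusted p was 0.221 for each. *Mccc2* was 0.59 higher with 3 of 4 KO mice above the WT range (adjusted p = 0.235), and *Auh* 0.11 higher with mixed groups (adjusted p = 0.697). Liver *Ivd* was 0.35 higher in KO mice (interval 0.11 to 0.59, adjusted p = 0.19), with WT mouse 1 at 7.30 above the lowest KO mouse at 7.24. In BAT, *Mccc1* had 4 KO values of 8.17 to 8.26 above 4 WT values of 7.95 to 8.12, a narrow gap with a difference of 0.15 (adjusted p = 0.455).

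For the other branches, *Acadsb* in eWAT measured 6.70, 6.49, 6.69 and 6.74 in WT and 7.65, 7.26, 7.20 and 8.03 in KO mice, a 1.84-fold rise (log2 0.88, interval 0.50 to 1.27, adjusted p = 0.0128). *Hibch*, the thioesterase of the valine branch that frees hydroxyisobutyrate from its coenzyme A ester, rose 2.12-fold in eWAT, from 6.29, 6.12, 6.19 and 5.91 to 7.55, 6.80, 6.84 and 7.64 (log2 1.08, interval 0.63 to 1.53, adjusted p = 0.0117). Both overlapped between genotypes in iWAT, with differences of 0.23 for *Acadsb* (adjusted p = 0.462) and 0.41 for *Hibch* (adjusted p = 0.267). In BAT *Acadsb* was 0.23 higher (adjusted p = 0.402), with WT mouse 2 at 7.70 below the other WT mice at 8.07 to 8.09, and *Hibch* 0.25 higher (adjusted p = 0.28).

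**Figure D2:**
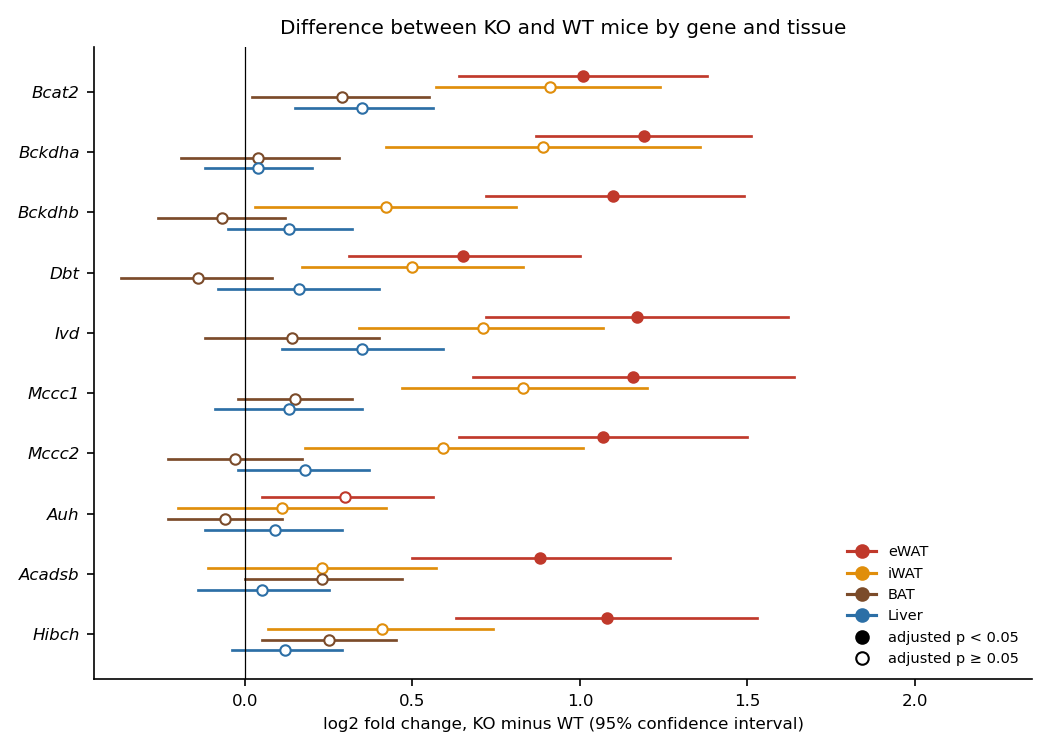
Log2 fold change between KO and WT mice (horizontal axis) with its 95% confidence interval for each gene (rows) in eWAT, iWAT, BAT and liver, filled where the adjusted p of limma was below 0.05. Only eWAT points are filled, 9 of 10 there, from 0.65 to 1.19. The iWAT points lie to the right of 0 with wider distance from BAT and liver for *Bcat2* (0.91), *Bckdha* (0.89) and *Mccc1* (0.83).

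The KO mice differed among themselves in eWAT. Relative to the WT mean, the mean of the 10 genes was 1.12, 0.66, 0.69 and 1.37 in KO mice 1 to 4, and -0.12 to 0.13 in the WT mice. Mice 1 and 4 were thus the higher pair and mice 2 and 3 the lower pair, for each of the 9 genes that rose. Macrophage transcripts moved with genotype in the same arrays. All 7 macrophage genes on the list fell in KO eWAT, by 0.91 to 2.69 on the log2 scale, and their mean log2 value was 8.69 to 8.96 in WT mice and 6.21, 8.40, 6.94 and 6.44 in KO mice 1 to 4 (summed over the 7 genes, 60.9 to 62.7 against 43.5 to 58.8). KO mouse 2, at 8.40, was the KO mouse nearest to the WT mice in macrophage level, and its members' mean, 0.66 above WT, was the lowest of the KO mice. KO mice 1 and 4 had the lowest macrophage levels, 6.21 and 6.44, and the highest members' means, 1.12 and 1.37. KO mouse 3 lay between, at 6.94 and 0.69. Of 8 adipocyte genes, 7 rose, among them *Adipoq* (0.51) and *Plin1* (0.65), and *Lep* fell by 0.98, with a median of 0.48 and summed levels of 75.1 to 76.8 in WT and 78 to 80.5 in KO mice. The part of these cell types in the members' rise was not tested.

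In iWAT, 0 of the 10 genes and 0 of all genes passed limma's adjusted threshold, and 0% of genes therefore rose by that rule. All 10 members were higher on average in KO mice, by 0.11 to 0.91 with a median of 0.55, against a median of 0.017 over all genes. Without adjustment, limma gave 8 of the 10 a p below 0.05, as it did 3803 of all genes (15.4%), and the methods' t-test gave 7 of the 10. For 5 genes, *Bcat2*, *Bckdha*, *Dbt*, *Ivd* and *Mccc1*, every KO value lay above every WT value, as for 4.29% of all genes. The exact permutation test over mice gave p = 0.0286 for each of these, two-sided and unadjusted, the smallest that 4 mice against 4 allow. Complete separation fixes that value, so the test restates the lack of overlap and adds no support. With the 4 arrays that carried B cell transcripts left out, only WT mice 3 and 4 and KO mice 1 and 3 remained. Of these, WT mouse 4 had a mean log2 value of 5.04 over 7 muscle genes, against 3.05 to 3.55 in the other iWAT arrays. *Bcat2* then differed by 0.98 (adjusted p = 0.0227), *Bckdha* by 0.71 (adjusted p = 0.0661) and *Mccc1* by 0.71 (adjusted p = 0.0517). The other 7 had adjusted p-values of 0.0657 to 0.912. Their differences were 0.65 for *Ivd*, 0.46 for *Dbt*, 0.45 for *Mccc2*, 0.35 for *Hibch*, 0.29 for *Bckdhb*, 0.08 for *Auh* and 0.03 for *Acadsb*. Of the 10 differences, all but that of *Bcat2* were smaller than with all arrays. Over all genes, 205 rose and 711 fell past the adjusted threshold in that fit. In the 4 arrays with B cell transcripts alone, from 2 mice of each genotype, the 10 differences ran from 0.14 for *Auh* to 1.07 for *Bckdha*. There 0 members and 0 of all genes were called. Without KO mouse 2, 2 members were called, *Bcat2* at 1.02 (adjusted p = 0.0398) and *Mccc1* at 0.94 (adjusted p = 0.0439). Over all genes, 110 rose and 117 fell past the adjusted threshold without that mouse. Macrophage genes were lower in KO iWAT as well, with mean log2 values of 5.85 to 6.86 against 6.68 to 7.78 and 0 of 7 past the threshold, and adipocyte genes had a median difference of 0.09. Their part was not tested.

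BAT and liver showed small differences. In BAT 0 of the 10 passed the adjusted threshold of limma, 2 had an unadjusted p below 0.05, as did 12.7% of all genes, and 6 were higher and 4 lower, with a median of 0.09 and a range of -0.14 to 0.29. Of all BAT genes, 0.00406% rose past the threshold. *Acadsb* and *Mccc1* were the 2 members without overlap, and 3.31% of all genes had every KO value above every WT value. Left without the 3 arrays that carried muscle transcripts, the median was 0.07 and 0 members were called. The differences were then 0.28 for *Bcat2* and *Hibch*, 0.17 for *Mccc1*, 0.12 for *Acadsb*, 0.07 for *Ivd*, 0.06 for *Bckdha*, -0.02 for *Auh*, -0.03 for *Mccc2*, -0.07 for *Bckdhb* and -0.19 for *Dbt*. Brown adipocyte genes stood at 8.73 to 9 in KO and 9.18 to 9.38 in WT BAT as a mean over the 6 genes, of which 0 passed the threshold, and their part was not tested. In liver all 10 were higher on average, by 0.04 to 0.35 with a median of 0.13 against 0.01 over all genes, and 0 passed limma's adjusted threshold, with 2 at an unadjusted p below 0.05, *Bcat2* and *Ivd*. Of all liver genes, 0.162% rose past the threshold and 13.3% had an unadjusted p below 0.05. *Bcat2* was the 1 member without overlap, and 3.62% of all genes were of that kind.

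The difference between tissues was then tested itself. For each mouse the mean of its eWAT and iWAT values was taken minus its BAT value, or minus its liver value, and KO and WT mice were compared on that difference. Against BAT, the KO effect in white fat was larger for 5 members at an adjusted p below 0.05, whereas 0.747% of all genes rose in this sense. The differences were 1.00 for *Bckdha* (interval 0.65 to 1.35, adjusted p = 0.0237), 0.83 for *Bckdhb* (adjusted p = 0.0371), 0.72 for *Dbt* (adjusted p = 0.0425), 0.85 for *Mccc1* (adjusted p = 0.0345) and 0.86 for *Mccc2* (adjusted p = 0.0379). *Bcat2* at 0.67 (adjusted p = 0.0565) and *Ivd* at 0.80 (adjusted p = 0.0598) were close to the threshold. *Hibch* (0.49), *Acadsb* (0.32) and *Auh* (0.27) had adjusted p-values of 0.156 to 0.329.

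Against liver, 5 members were called as well, where 1.33% of all genes rose. They were *Bcat2* at 0.61 (interval 0.29 to 0.92, adjusted p = 0.0431), *Bckdha* at 1.00 (interval 0.69 to 1.31, adjusted p = 0.0106), *Mccc1* at 0.87 (adjusted p = 0.0329), *Mccc2* at 0.65 (adjusted p = 0.0258) and *Hibch* at 0.62 (adjusted p = 0.0376). Both comparisons use the same white fat arrays. *Bckdha* shows the measurement mouse by mouse. Its white fat minus BAT value was -2.74 to -2.37 in WT mice and -1.91 to -1.22 in KO mice. With eWAT alone 8 members were called against BAT and 8 against liver, while 536 and 654 of all genes rose in this sense, and with iWAT alone 0 and 0, with 0 and 1 of all genes. KO mouse 2 was among the mice with B cell transcripts in iWAT and with muscle transcripts in BAT. It also had the highest macrophage level of the KO mice in eWAT. Without KO mouse 2 the counts were 8 and 8, with 533 and 750 of all genes rising. Without any other single mouse they were 0 to 1 against BAT, with 0 to 63 of all genes rising. Against liver they were 1 to 2, with 44 to 156 of all genes rising. When the arrays were taken as independent, without the mouse as a block, 1 member was called against BAT, *Bckdha* (adjusted p = 0.0375), and 2 against liver, *Bckdha* (adjusted p = 0.0124) and *Mccc1* (adjusted p = 0.0416). Of all genes, 72 rose against BAT and 232 against liver in that fit.

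**Figure D3:**
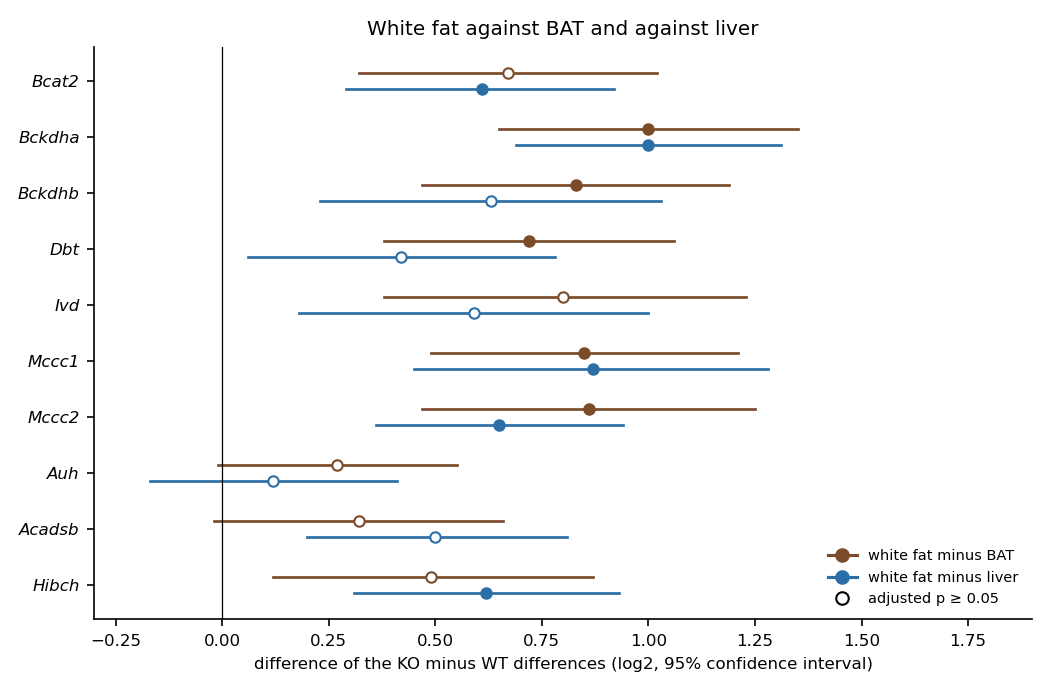
Difference between the KO effect in white fat (mean of eWAT and iWAT) and that in BAT (brown) or liver (blue), on the log2 scale with 95% confidence intervals (horizontal axis) for each gene (rows), filled where the adjusted p was below 0.05. All points lie right of 0, from 0.12 for *Auh* against liver to 1.00 for *Bckdha* against both, and 5 are filled in each colour.

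WT levels set the background for these differences. The tables of the tissues were normalized separately, so levels across tissues are a description without a test. On the deposited scales, 9 of the 10 genes were highest in BAT, among them *Bckdha* at 8.84 ± 0.06 (SD, n = 4) in BAT, 8.01 ± 0.06 in liver, 6.54 ± 0.38 in iWAT and 6.15 ± 0.18 in eWAT. *Hibch* followed the same order with 8.63 ± 0.12, 6.74 ± 0.04, 6.62 ± 0.17 and 6.13 ± 0.16, and its liver and iWAT mice overlapped. *Bcat2* had another order, with 6.10 ± 0.13 in BAT, 5.61 ± 0.18 in iWAT, 5.34 ± 0.08 in eWAT and 4.96 ± 0.13 in liver, and iWAT and eWAT overlapped. *Auh* was highest in iWAT at 5.22 ± 0.14 and lowest in liver at 4.63 ± 0.11. Of the 30 pairs of neighbouring tissues in these orders, 12 overlapped between mice. BAT was the highest tissue for all 10 genes with joint quantile normalization, with the median of each array set to 0 and with percentile ranks. The place of BAT thus held for 9 genes, while *Auh* moved from highest in iWAT to highest in BAT. The order of the other tissues did not hold on every scale. All 10 genes were higher in iWAT than in eWAT on the deposited scale, with joint quantile normalization and by percentile rank, and 4 were with array medians at 0. Higher in liver than in both white depots were 5 genes on the deposited scale and 8 with array medians at 0. With joint quantile normalization and by percentile rank all 10 were.

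For 9 of the 10 genes the mean of KO white fat, in either depot, lay nearer to WT BAT than that of WT white fat did. *Auh* was lower in WT BAT than in either white depot on the deposited scale and higher than in both on the other scales. On the deposited scale, WT BAT minus eWAT was -0.24 with WT eWAT and -0.54 with KO eWAT for *Auh*. For *Bcat2* the WT mean of eWAT was 0.76 below that of WT BAT, and the KO mean of eWAT, 6.35 ± 0.37, lay above the 6.10 ± 0.13 of WT BAT. For *Bckdha* the gap of eWAT to WT BAT was 2.69 in WT and 1.51 in KO mice, and for *Hibch* 2.5 and 1.42. The depots themselves lay closer in KO mice for 9 genes, as for *Bckdhb*, where iWAT exceeded eWAT by 0.69 in WT and by 0.01 in KO mice, and for *Dbt* this difference went from 0.02 to -0.13. The gaps were not tested and rest on the separate scales of the tables.

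The other 23 genes listed for the pathway were taken from its known steps. In eWAT 11 of them rose, 2 fell and 10 did not pass the threshold, with a median of 0.32. Of all 24646 genes of eWAT, 1126 rose and 2632 fell by the same rule. The control of the dehydrogenase complex was uneven. *Bckdk*, the kinase that switches the complex off, measured 7.02 to 7.30 in WT and 6.91 to 7.53 in KO eWAT (difference 0.11, adjusted p = 0.614). *Ppm1k*, the phosphatase that switches it on, rose from 5.25, 4.92, 5.47 and 5.19 to 6.24, 5.92, 6.09 and 6.67 (2.03-fold, adjusted p = 0.00981). *Klf15*, a transcription factor known to drive amino acid catabolism in fasting, had the largest change on the list. Its eWAT values were 4.57, 3.38, 4.11 and 4.29 in WT and 6.29, 5.43, 6.04 and 6.39 in KO mice, a 3.86-fold rise (log2 1.95, interval 1.34 to 2.56, adjusted p = 0.00813). In iWAT *Klf15* was 1.14 higher without overlap (adjusted p = 0.221) and in BAT 0.66 higher without overlap (adjusted p = 0.137), and in liver it was 0.17 higher with overlap (adjusted p = 0.489). *Bcat1*, the cytosolic aminotransferase, was dim in every tissue, at most 4.49 in any mouse, and differed by -0.18 in eWAT (adjusted p = 0.318). *Slc25a44*, the mitochondrial carrier of these amino acids, differed by 0.10 in eWAT and in iWAT and by 0.05 in BAT and -0.13 in liver, none past the threshold.

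Of the distal steps, 8 genes rose in eWAT, with *Echs1* (1.00), *Hibadh* (0.68) and *Aldh6a1* (1.06) on the valine branch, *Hsd17b10* (0.67) on the isoleucine branch, and *Pcca* (0.61), *Pccb* (0.94), *Mut* (0.63) and *Mmaa* (0.55) on the common route from propionyl-CoA to succinyl-CoA. *Acat1*, the thiolase at the end of isoleucine breakdown, had 0.32 (adjusted p = 0.115). *Acad8*, the isobutyryl-CoA dehydrogenase of the valine branch, had 0.23 (adjusted p = 0.0923), *Mmab*, which makes the cobalamin cofactor of *Mut*, 0.13 (adjusted p = 0.42), and *Mcee*, the epimerase ahead of *Mut*, -0.20 (adjusted p = 0.549). *Hlcs*, which attaches biotin to the carboxylases, had -0.06 (adjusted p = 0.688). The 4 genes for transport across the plasma membrane differed in direction. *Slc7a5*, the light chain of a large neutral amino acid exchanger, fell from 5.35, 5.14, 5.0 and 5.06 to 4.37, 4.38, 4.35 and 4.39 (log2 -0.76, adjusted p = 0.00566), and its heavy chain *Slc3a2* fell by 0.48 (adjusted p = 0.0213). *Slc43a1*, a facilitated carrier of branched-chain amino acids, rose by 1.06 (adjusted p = 0.0235), and its relative *Slc43a2* had -0.72, with every KO value below every WT value (adjusted p = 0.0514).

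In the other tissues 0 of these 23 genes passed limma's adjusted threshold, with 8 in iWAT, 8 in BAT and 5 in liver at an unadjusted p below 0.05, where all genes had shares of 15.4%, 12.7% and 13.3%. In BAT 4 of them, among them *Ppm1k*, had every KO value above every WT value, as for 3.31% of all genes. For another 4, among them *Bckdk*, every KO value lay below every WT value. *Bckdk* measured 8.46, 8.60, 8.38 and 8.55 in WT and 8.07, 8.04, 8.21 and 8.17 in KO mice (difference -0.37, interval -0.56 to -0.19, adjusted p = 0.13), and *Ppm1k* 6.42, 5.70, 6.60 and 6.04 in WT and 6.92, 7.22, 7.25 and 7.10 in KO mice (difference 0.93, interval 0.54 to 1.32, adjusted p = 0.108). The kinase was thus lower and the phosphatase higher in every KO mouse, and neither passed the adjusted threshold. *Slc3a2* had every KO value below every WT value in all 4 tissues, with differences of -0.48 in eWAT, -0.42 in iWAT, -0.61 in BAT and -0.49 in liver (adjusted p = 0.0213, 0.264, 0.13 and 0.0574). The share of all genes with every KO value below every WT value was not computed.

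**Figure D4:**
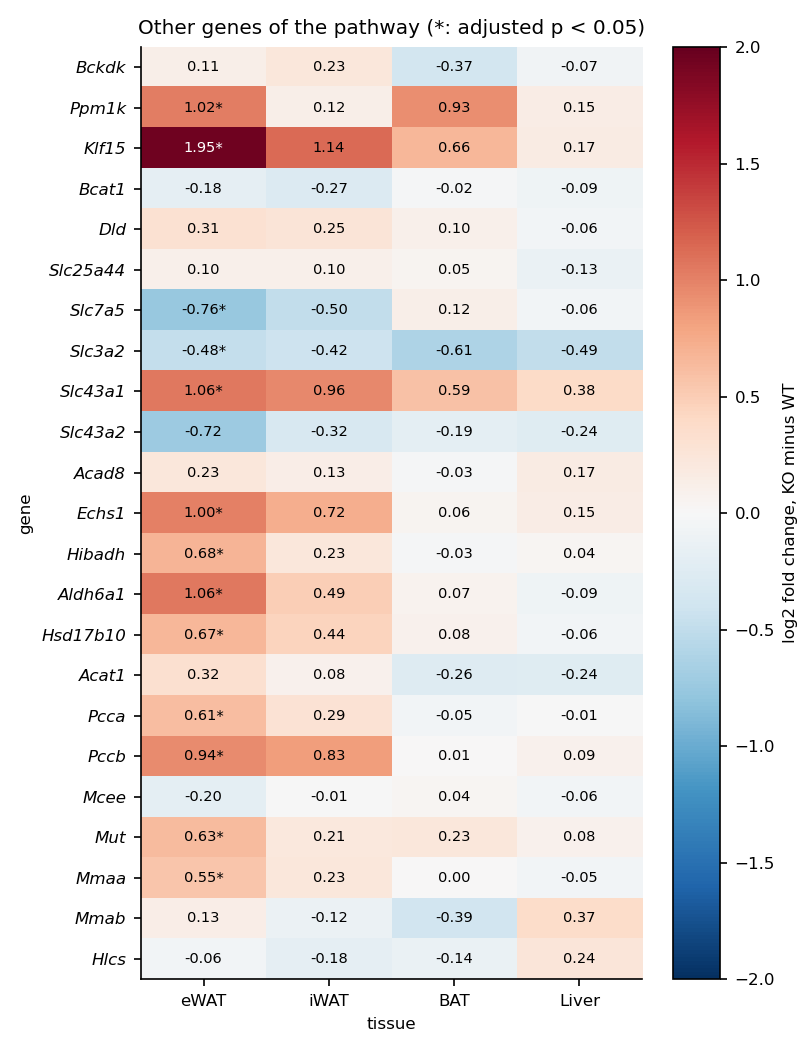
Log2 fold change between KO and WT mice (colour and printed value) for the 23 other genes of the pathway (rows) in eWAT, iWAT, BAT and liver (columns), with an asterisk at an adjusted p below 0.05. The asterisks stand in the eWAT column alone, 13 of them, with *Klf15* at 1.95 as the highest and *Slc7a5* at -0.76 as the lowest value.

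Other mitochondrial genes were set beside the members, and the amount of mitochondria was not tested. Of 16 tricarboxylic acid (TCA) cycle genes, 1 rose past limma's adjusted threshold in eWAT, *Sdha*, and 0 fell, with a median of 0.23. On average 13 of the 16 were higher in KO eWAT. An unadjusted limma p below 0.05 was found for 6 of them and for 7338 of all 24646 genes. Of 12 genes for mitochondrial import and the outer membrane pore, 1 rose, *Hspd1*, and 3 fell, *Tomm22*, *Tomm40* and *Vdac2*, with a median of -0.09. Of all genes, 1126 rose and 2632 fell past the adjusted threshold. The median of the 10 members in the same arrays was 1.07. In iWAT the TCA cycle genes had a median of 0.34, nearer to the 0.55 of the members, and the import and pore genes 0.01. All 16 TCA cycle genes were higher on average in KO iWAT. An unadjusted limma p below 0.05 was found for 10 of them, and for 15.4% of all genes. Every KO value lay above every WT value for 6 of the 16, and for 4.29% of all genes. In BAT the medians of the TCA cycle and the import and pore genes were -0.04 and -0.06, and in liver 0 and -0.01.

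**Figure D5:**
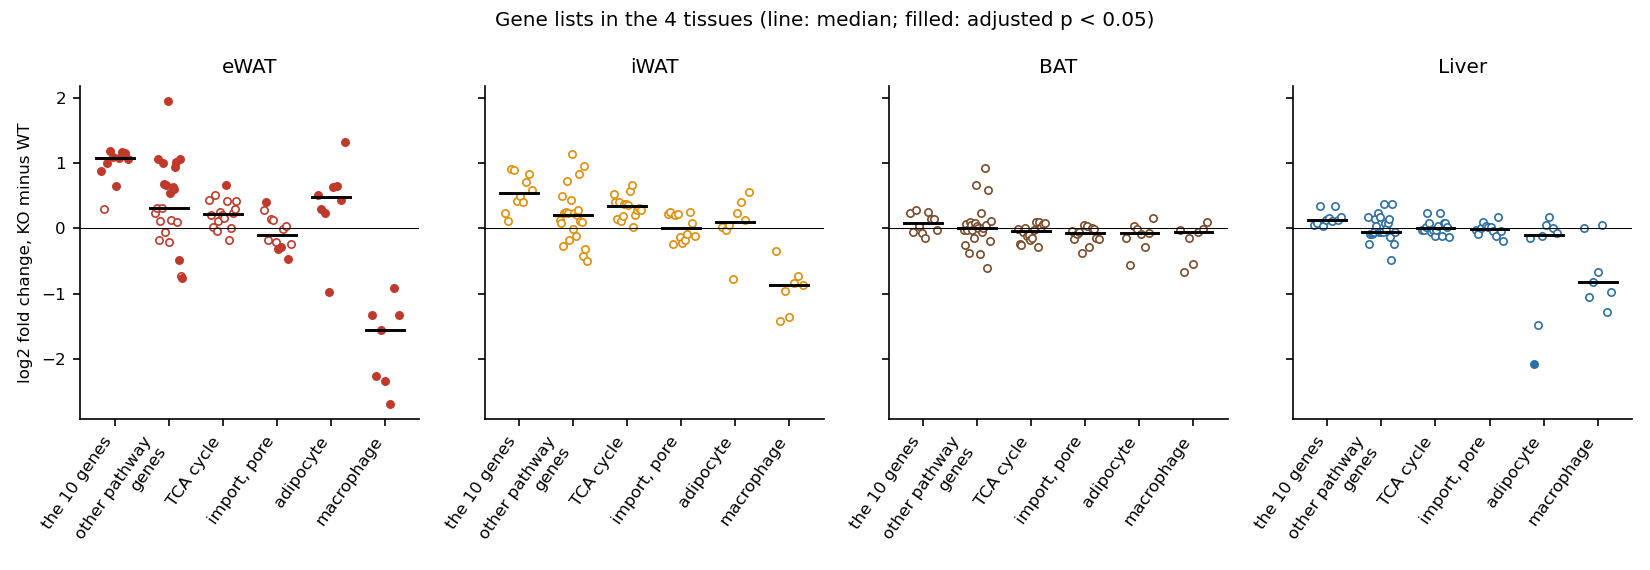
Log2 fold change between KO and WT mice (vertical axis) of each gene of 6 lists in the 4 tissues, with a line at the median and filled points at an adjusted p below 0.05. In eWAT the 10 breakdown genes have a median of 1.07, above the TCA cycle genes at 0.23, the import and pore genes at -0.09 and the adipocyte markers at 0.48, and the macrophage markers lie at -1.56.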

How the data were processed

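Affymetrix Mouse Gene 2.1 ST arrays measured 100 ng of biotin-labelled total RNA per sample. For each tissue the authors deposited a table of log2 values with a row per gene symbol and a column per mouse, already normalized between its arrays. The software, probe summary and normalization are not given in the sources used here. Several probe sets had been averaged for 840 genes, none of them a member. Entries with a blank or numeric name (1 or 2 per table) were left out, which left 24646 genes.

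KO and WT mice were compared within each tissue with limma 3.58.1 (R 4.3.3), without covariates, at a Benjamini-Hochberg adjusted p below 0.05 over all genes. For single genes a two-sided exact permutation test over all 70 relabelings of the mice was added (scipy 1.17.1). For differences between tissues, values were subtracted within a mouse, since the labels number the mice. The mice are separate animals. The members, the other lists and the named genes (all members, *Gpr146*, *Bcat1*, *Bckdk*, *Ppm1k*, *Dld*, *Klf15*, *Slc25a44*, and other listed genes past the threshold in a tissue) were chosen with earlier results of these data known. Beyond the lists given, 1 further pathway gene is not reported here. A few genes below the threshold were named after their values were seen. The procedure was tested on simulated data. Alternatives were quantile normalization, equal array medians, weighted arrays, the methods' t-test, a robust prior with a trend, leaving out genes with a mean below the table's median, the mouse number as a block, marker covariates and each array left out. Fits without the arrays high in B cell or muscle transcripts were chosen after seeing the data. Promoters came from RefSeq (GRCm38.p6), figures from matplotlib 3.10.9.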

Additional observations from a re-analysis of the deposited data

Results flagged for a closer look

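Of 80 sets of 4 values, a gene in a tissue and genotype, 5 had a mouse far from the other mice, its gap to the nearest value taking up most of the range, and chance gives about 1 in 20. *Bckdha* in BAT had WT mouse 3 at 8.93, with 0.831 of the range in the gap. *Mccc2* in liver had WT mouse 2 at 6.92 (0.841), *Auh* in eWAT WT mouse 2 at 4.66 (0.833), *Acadsb* in BAT WT mouse 2 at 7.70 (0.933) and *Hibch* in BAT KO mouse 4 at 8.73 (0.897).

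The KO effect differed between white fat and BAT, by the test of the difference, for *Bckdha* (1.00), *Bckdhb* (0.83), *Dbt* (0.72), *Mccc1* (0.85) and *Mccc2* (0.86), and between white fat and liver for *Bcat2* (0.61), *Bckdha* (1.00), *Mccc1* (0.87), *Mccc2* (0.65) and *Hibch* (0.62), all on the log2 scale. These calls rest on few mice, with 0 to 8 members called against BAT and 1 to 8 against liver when single mice were left out, 0 and 0 with iWAT alone and 1 and 2 without the block. Of all genes, 0 to 533 and 44 to 750 rose with single mice left out, 0 and 1 with iWAT alone and 72 and 232 without the block.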

How the results depend on the processing

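For single members, 144 of 160 values from alternatives in eWAT, 179 of 190 in iWAT, 173 of 180 in BAT and 157 of 160 in liver kept their direction and their side of the threshold. The cause of the changes below was not tested.

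By the methods' t-test after adjustment, 0 members, 1 other pathway gene and 38 of all genes were called in eWAT, in place of 9, 13 and 3758, and over all genes 1 was called in iWAT, 0 in BAT and 2 in liver. Unadjusted, it called 6798 genes in eWAT, 7 members, 8 other pathway genes and 3167 genes in iWAT, 2, 8 and 2803 in BAT and 2, 5 and 2901 in liver. With single arrays left out, 8 to 10 members were called in eWAT, with 4 to 16 other pathway genes and 1448 to 5429 of all genes, the fewest without WT mouse 4 and WT mouse 2 and the most without KO mouse 3 and KO mouse 2. In iWAT the ranges were 0 to 2 members, 0 to 2 other pathway genes and 0 to 227 genes, the highest without KO mouse 2, in BAT 0 to 80 genes, the highest without WT mouse 1, and in liver 0 to 1 other pathway gene, the highest without KO mouse 3, and 41 to 300 genes, against 163 with all arrays, the extremes without WT mouse 3 and KO mouse 2.

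A B cell covariate in iWAT gave 1 member, 1 other pathway gene and 28 genes, and leaving out the 4 arrays with B cell transcripts gave 1, 1 and 916. The 7 genes called in BAT became 0 with quantile normalization, equal array medians, the replicate block, the muscle covariate or the 3 muscle-bearing arrays left out. Same-numbered WT and KO mice share only a number in the labels. Their deviations correlated at r from -0.385 to 0.669, each tissue had at least 1 pair near or below 0, and in no tissue did every mouse correlate best with its own number. With the mouse number as a replicate block, 9 members were again called in eWAT and 0 in the other tissues, and over all genes 1 was called in iWAT. In liver, 1 other pathway gene was called with the trended and robust prior and 1 with dim genes left out, which gave 252 genes. White fat against BAT and against liver gave 5 and 5 members in the main comparison, 8 and 8 with eWAT alone, 0 and 0 with iWAT alone, 1 and 2 without the block, and 0 to 8 and 1 to 8 with single mice left out. Of all genes, 184 and 329 rose in the main comparison, 536 and 654 with eWAT alone and 72 and 232 without the block.

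Reversed signs were all near 0. They were *Mccc2* (0.00544) and *Auh* (0.0181) in BAT with quantile normalization and *Acadsb* against BAT with iWAT alone (-0.00596), and with single arrays left out the values ran from -0.0176 to 0.0945 for *Acadsb* in liver, -0.0438 to 0.12 for *Bckdha* in BAT and -0.0755 to 0.0166 for *Mccc2* in BAT. For WT levels, members higher in liver than in both white depots numbered 5, and 10 with joint quantile normalization or percentile rank and 8 with array medians at 0. Those higher in iWAT than in eWAT numbered 10, again 10 with joint quantile normalization or percentile rank, and 4 with array medians at 0.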
